A study of Mus musculus with 22 samples.

Results

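The genes described here are 10 epithelial genes of the mouse: the cell junction genes Cdh1, Epcam, Cldn6 and Marveld3, the keratin genes Krt8, Krt18 and Krt19, and the regulator genes Grhl2, Ovol2 and Esrp1. They were followed at every region of the deposited histone mark tables that overlapped a gene's mm10 extent or the 2500 bp on either side of it. These windows held 76 of the 135566 H3K27ac regions and 2 of the 68845 H3K9me3 regions. Regions are numbered within each gene from its low-coordinate end, and neighbouring regions of 1 gene are not independent measurements.

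Epithelial cells are held together by adherens junctions, built on E-cadherin, and by tight junctions, built on claudins and MARVEL-domain proteins, while keratin filaments brace them from within. The transcription factors GRHL2 and OVOL2 and the splicing regulators of the ESRP family maintain this state and act against mesenchymal programmes. Fibroblasts lack most of it, and their reprogramming to pluripotency passes through a mesenchymal-to-epithelial transition, in which E-cadherin is a well known early sign. H3K27ac, acetylation of histone H3, marks active promoters and enhancers, and H3K9me3, a trimethylation of the same histone, marks heterochromatin.

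The study used chromatin immunoprecipitation with sequencing (ChIP-seq) on cells derived from C57BL/6 mouse embryonic fibroblasts (MEFs). C2 induced pluripotent stem (iPS) cells came from transduction with the zinc finger artificial transcription factors ZFATF1, ZFATF2 and ZFATF3 plus Sox2, Klf4 and c-Myc, and C3 iPS cells from ZFATF1, ZFATF2 and ZFATF4 plus the same 3 genes. OSKM iPS cells received Oct4 in place of the artificial factors, so Sox2, Klf4 and c-Myc were shared by all groups. Each mark was mapped in 2 libraries per line, and the labels do not say whether a line was 1 clone or whether replicates were separate cultures, so that p-values measure only the spread between these samples. All iPS cells had been given 100 nM 4-hydroxytamoxifen for their Oct4-MerCreMer Tomato/GFP reporter and were fixed in 1.5% formaldehyde. Early C2 cells at day 20 after transduction, which still made the HA-tagged artificial factors, and early cells given an empty vector with Sox2, Klf4 and c-Myc (Empty) gave 2 HA libraries each. C2 and OSKM cells shared 1 pair of input samples, whereas C3 cells had a pair of their own, so a difference between inputs cannot be told apart from a difference between C3 and OSKM cells.

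Reads in regions numbered 7033486 to 17649231 per H3K27ac library and 3412599 to 8548902 per H3K9me3 library. C2 replicate 2 was the H3K27ac library with the fewest reads in regions. The median fold enrichment of its peaks, as called by the authors, was 3.62, against 4.20 to 4.86 in the other H3K27ac libraries. Fits without it are given below where a named call was lost, and beyond these its part in the differences of C2 cells was not tested. The label of iPS cells was checked on marker genes at the strongest H3K27ac region of each gene, in reads per 1000000 reads in regions (rpm). All 10 markers of pluripotent stem cells had a region, and their summed levels were 2480.2 and 2194 in C2 libraries, 3138 and 2438 in C3 libraries and 3643 and 3517 in OSKM libraries. Fibroblast markers had a region for 7 of 10 genes, with sums of 5.48 to 11 rpm over the 6 libraries, and Lum and Postn were at 3 reads or fewer. Markers of primitive endoderm, an extraembryonic epithelium of the early embryo, had a region for 10 of 10 genes, with summed levels of 332 and 217 in C2 libraries, 440.2 and 316 in C3 libraries and 73.1 and 103 in OSKM libraries. Of these 10 genes, 5 were called higher in C2 cells than in OSKM cells and 9 were called higher in C3 cells than in OSKM cells, where 5.21% and 13.5% of all regions were. Of the pluripotency markers, 5 of 10 were called lower in C2 than in OSKM cells, where 5.38% of all regions were, and 0 of 10 in C3 cells. Klf2, among those 5, lies on chromosome 8, which was lower as a whole in C2 cells, as given below. Trophoblast markers, among them Krt7, had a region for 8 of 8 genes and sums of 278 and 292 in C2 libraries, 262 and 304 in C3 libraries and 234 and 225 in OSKM libraries.

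Between C2 and OSKM cells, the mark of active chromatin differed at the 10 genes in both directions. Of the 73 regions tested, 19 were higher and 13 lower in C2 cells, or 43.8%, where 10.6% of all 100957 regions tested were called in either direction, 5.21% higher and 5.38% lower. Every region called higher belonged to Grhl2 (12 regions), Krt8, Krt18 and Krt19 (2 regions each) or Ovol2 (1 region), and every region called lower belonged to Cdh1 (10) or Marveld3 (3), the members that lie on chromosome 8. Epcam, Esrp1 and Cldn6 had no called region. Calls are at an adjusted p under 0.05 in limma on log2(normalized reads + 1), and the regions with the lowest mean signal were not tested, which left out Epcam region 5, Krt18 region 4 and Grhl2 region 26. Quantile normalization gave 13 calls in place of 32, and fewer than 32 were also called when either OSKM library was left out. The share of all regions called under these settings is not given here.

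Between C3 and OSKM cells, 24 of 74 tested regions were higher and 14 lower in C3 cells, or 51.4%, where 22.0% of all 101600 regions tested were called, 13.5% higher and 8.52% lower. Grhl2 gave 17 of the regions called higher, Krt8 3, Krt18 2, and Krt19 and Ovol2 1 each. Cdh1 gave 9 of the regions called lower, Marveld3 4 and Cldn6 1. Epcam region 6 and Grhl2 region 26 were not tested. Both comparisons use the same OSKM libraries and are therefore not independent of each other. A region with a higher value can hold more of the mark in each cell or the mark in more cells, and these cases cannot be told apart.

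**Figure D1:**
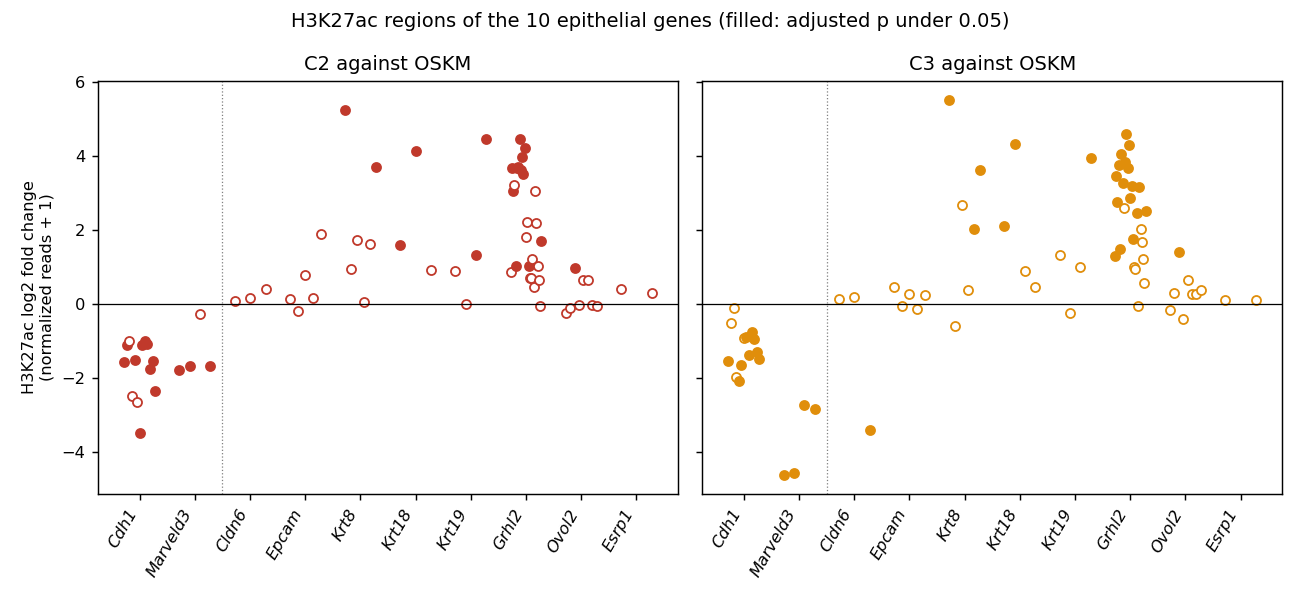
Each point is 1 H3K27ac region of a gene, with its log2 fold change on normalized reads + 1 for C2 against OSKM cells (left panel) and C3 against OSKM cells (right panel); filled points passed an adjusted p under 0.05, and the dotted line sets Cdh1 and Marveld3, on chromosome 8, apart from the other 8 genes. All 17 regions of Cdh1 and Marveld3 lie below 0 in both panels, and the filled points above 0 belong to the keratin genes, Grhl2 and Ovol2.

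Among the regulators, Grhl2 stood out by the number of its regions. It encodes grainyhead-like 2, a transcription factor that activates Cdh1 and tight junction genes, and lies at chr15:37232821-37363569. Normalized reads over its 26 regions summed to 2937 and 2335 in C2 cells, against 847 and 957 in OSKM cells, a ratio of means of 2.92. In the table of C3 and OSKM cells they summed to 4732 and 3373 in C3 cells, against 921 and 1042 in OSKM cells, a ratio of 4.13. In both comparisons 24 of its 25 tested regions had a positive log2 fold change, and the medians of its tested regions were 2.2 for C2 over OSKM and 2.59 for C3 over OSKM, where the medians of all regions were -0.01 and 0.03. All C2 and C3 totals lay above both OSKM totals of their table. The same OSKM library has different values in the 2 tables because each was normalized on its own.

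Grhl2 region 10 (chr15:37260076-37265365), centred 29.9 kb into the gene, had the lowest adjusted p of the gene in both comparisons. It held 403 and 290.0 normalized reads in C2 cells, against 11.2 and 37.4 in OSKM cells, and the log2 fold change was 3.99 ± 0.50, adjusted p = 0.0106 (limma estimate ± SE, n = 2 libraries per group here and in what follows). In the other table it held 652 and 484 normalized reads in C3 cells, against 12.1 and 40.7 in OSKM cells (4.59 ± 0.50, adjusted p = 0.00338). Every C2 and C3 library lay far above both OSKM libraries, and the call held when any 1 library was left out. The strongest region of the gene, region 5 (chr15:37240276-37245380), held 586 and 462 normalized reads in C2 cells, against 249 and 263 in OSKM cells (1.02 ± 0.21, adjusted p = 0.0257). It held 947 and 644 normalized reads in C3 cells, against 270.4 and 286 in OSKM cells (1.49 ± 0.25, adjusted p = 0.00753). The groups did not overlap, but the C2 call was lost without OSKM replicate 1 (adjusted p = 0.171) or replicate 2 (adjusted p = 0.111).

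Other Grhl2 regions differed at its far end and near its low-coordinate end. Region 25 (chr15:37346255-37349561), 115.1 kb into the gene, held 335 and 276 normalized reads in C2 cells, against 89.4 and 95.8 in OSKM cells (1.71 ± 0.23, adjusted p = 0.0110), and 765 and 445 normalized reads in C3 cells, against 97.1 and 104 in OSKM cells (2.52 ± 0.29, adjusted p = 0.00360). Region 6 (chr15:37245448-37247655) held 156 and 139 normalized reads in C2 cells, against 17.3 and 6.39 in OSKM cells (3.67 ± 0.51, adjusted p = 0.0121). Region 15 (chr15:37287223-37291820) held 582 and 460.3 normalized reads in C3 cells, against 146 and 159 in OSKM cells (1.76 ± 0.23, adjusted p = 0.00417). Each of these calls held without any 1 library. The regions called higher were spread from region 2 to region 25 in C2 cells and from region 1 to region 25 in C3 cells. Regions 16, 17, 19 and 21 to 24 were called in neither comparison.

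Some Grhl2 regions were nearly empty in OSKM cells. Of the 26 regions, 6 were at 3 reads or fewer in both OSKM libraries, against 1 in C2 and 1 in C3 libraries, and that 1 was region 26, which was at 1 read in all 6 libraries. Where both OSKM libraries were at 1 read, the fold change is a lower bound, set against 3 reads in each of them. The value of 1 read is the lowest of each library. In every library of a table, 22.8% of all H3K27ac regions (C2 and OSKM) and 24.9% (C3 and OSKM) were at it. At least 24.9% of all regions were thus at 1 read in both OSKM libraries, so 6 of 26 does not set Grhl2 apart. Whether control reads were subtracted is not known, so these bounds hold only for the reads as deposited. With both OSKM libraries at 1 read, a region passed the signal filter through its C2 or C3 reads. Its adjusted p then depends on that floor and on the pseudocount. Region 12 was called in both comparisons and was at least 12.4-fold higher in C2 cells and at least 12.9-fold higher in C3 cells. Region 8 was at least 14.6-fold higher in C2 cells, a called difference, and at least 4.10-fold higher in C3 cells, with an adjusted p of 0.0515 that missed the threshold.

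**Figure D2:**
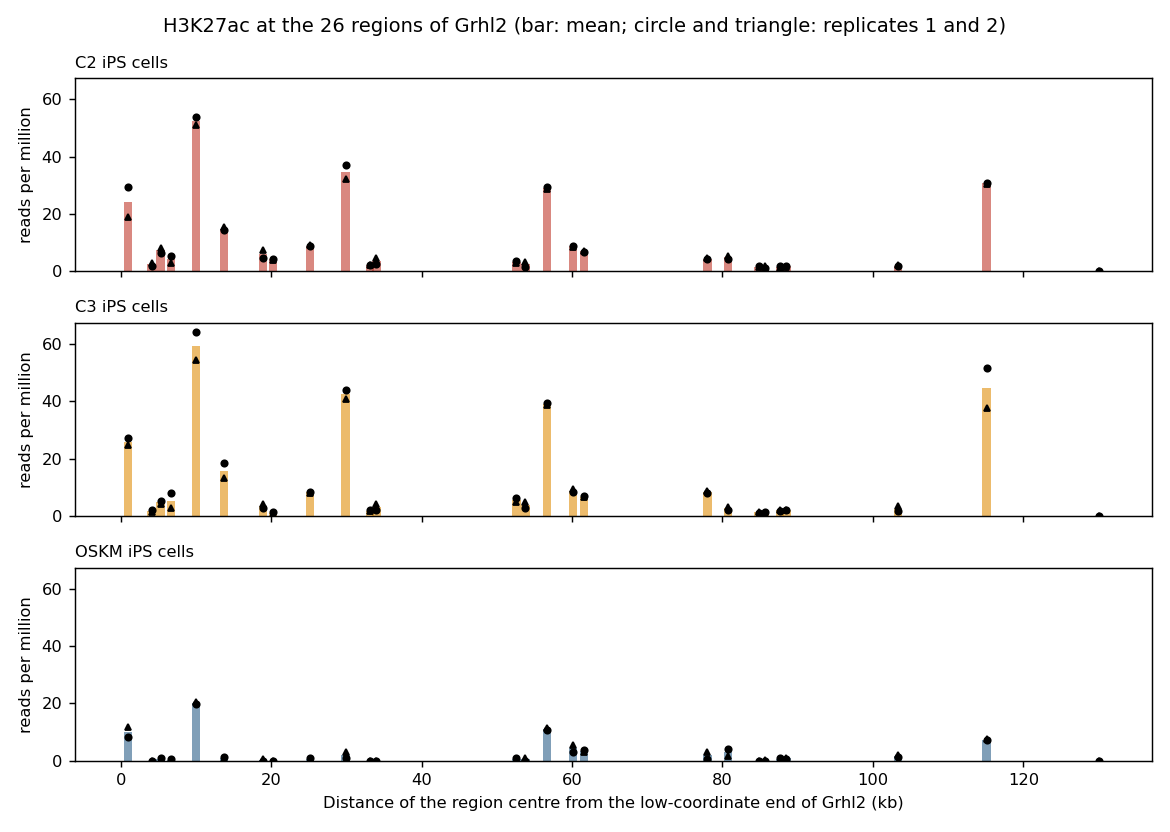
H3K27ac rpm (vertical axis) at the 26 regions of Grhl2, placed by the distance of each region's centre from the gene's low-coordinate end in kb (horizontal axis), for C2, C3 and OSKM iPS cells; bars are means of 2 libraries, and circles and triangles are replicates 1 and 2. The region at 29.9 kb is among the tallest in C2 and C3 cells and close to 0 in OSKM cells, and the region at 130.1 kb is near 0 in all 3 lines.

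Ovol2, a zinc finger repressor of mesenchymal genes, was called at 1 of its 8 regions in each comparison, or 12.5%. Of all tested regions, 10.6% were called between C2 and OSKM cells and 22.0% between C3 and OSKM cells. The count therefore does not set Ovol2 apart. The called region was its strongest, region 3 (chr2:144307934-144313148), which held 568 and 490.1 normalized reads in C2 cells, against 266 and 269 in OSKM cells (0.98 ± 0.20, adjusted p = 0.0250). It held 811 and 745 normalized reads in C3 cells, against 289 and 293 in OSKM cells (1.41 ± 0.21, adjusted p = 0.00550). Both C2 and both C3 libraries were above both OSKM libraries, while the C2 call was lost without OSKM replicate 1 (adjusted p = 0.182) or replicate 2 (adjusted p = 0.155). Region 8, which covers the Ovol2 promoter, held 315 and 278 normalized reads in C2 cells, against 291 and 328 in OSKM cells (-0.06 ± 0.20, adjusted p = 0.868), and C2 and OSKM values overlapped. The other 6 regions of Ovol2 had log2 fold changes between -0.24 and 0.65 in C2 cells and between -0.40 and 0.64 in C3 cells, with no call.

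Esrp1, which sets epithelial splice forms, had 2 regions, both at its high-coordinate end and neither called. Region 2 (chr4:11386909-11389493), which overlaps the predicted gene Gm35631, was the stronger. It held 356 and 275 normalized reads in C2 cells, against 254 and 251 in OSKM cells (0.31 ± 0.22, adjusted p = 0.383), and 295 and 302 normalized reads in C3 cells, against 276 and 273 in OSKM cells (0.12 ± 0.21, adjusted p = 0.700). Region 1 had log2 fold changes of 0.40 (adjusted p = 0.275) and 0.10 (adjusted p = 0.776). In rpm per kb of region, Esrp1 held 9.96 and 10.8 in C2 libraries, 6.20 and 8.33 in C3 libraries and 6.32 and 6.4 in OSKM libraries, while Grhl2 held 6.56 and 6.29, 7.79 and 6.92 and 1.63 and 1.82 in the same order.

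The keratin genes Krt8 and Krt18 encode the pair of filament proteins found in simple epithelia and in the first epithelia of the embryo, and Krt19 encodes a smaller acidic keratin of the same tissues. Krt8 (chr15:101996711-102004342) and Krt18 (chr15:102028216-102032026) lie 23.9 kb apart, and Krt19 lies at chr11:100140810-100145926. Added over all regions of a gene, C2 cells held 2.41 times the normalized reads of OSKM cells at Krt8, 2.82 times at Krt18 and 2.44 times at Krt19. For C3 over OSKM cells the ratios were 2.86, 3.29 and 2.14 for the same 3 genes.

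The strongest Krt8 region was not called. This was region 4 (chr15:102002585-102004349), at the promoter end of the gene, which held 140.4 and 104 normalized reads in C2 cells, against 125 and 109.5 in OSKM cells (0.05 ± 0.26, adjusted p = 0.921). It held 196 and 139.6 normalized reads in C3 cells, against 136 and 119 in OSKM cells (0.38 ± 0.26, adjusted p = 0.347). C2 and OSKM values overlapped, and the C2 estimate changed sign with the scaling of libraries. The called regions lay in the flanks. Region 1 (chr15:101995211-101996608), beyond the low-coordinate end of Krt8 and overlapping the extent of the keratin gene Krt78, held 86.6 and 61.6 normalized reads in C2 cells, against 1.02 and 0.913 in OSKM cells (5.24 ± 0.75, adjusted p = 0.0127). It held 136 and 63.3 normalized reads in C3 cells, against 1.1 and 0.993 in OSKM cells (5.52 ± 0.72, adjusted p = 0.00435). With both OSKM libraries at 1 read, these are differences of at least 25.6-fold in C2 cells and at least 31.7-fold in C3 cells. The region passed the signal filter through its C2 or C3 reads, and OSKM libraries at the floor have almost no spread. The adjusted p, and that both calls held without any 1 library, therefore depend on the floor and the pseudocount and add no support.

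Farther upstream, region 6 (chr15:102005645-102007149), which overlaps the predicted gene Gm36026, held 101 and 80.8 normalized reads in C2 cells, against 3.05 and 11 in OSKM cells (3.71 ± 0.66, adjusted p = 0.0186). It held 83.7 and 99.3 normalized reads in C3 cells, against 3.31 and 11.9 in OSKM cells (3.63 ± 0.66, adjusted p = 0.00940). All C2 and C3 libraries were above both OSKM libraries. The calls were lost with 1 C2 library in place of 2 (adjusted p = 0.0609 without replicate 1, 0.0590 without replicate 2) and with 1 C3 library (adjusted p = 0.0578 without replicate 1, 0.0664 without replicate 2). Region 5 (chr15:102004363-102005513), over the Krt8 promoter, held 67.8 and 101 normalized reads in C3 cells, against 32.0 and 11.9 in OSKM cells (2.02 ± 0.55, adjusted p = 0.0347), and in C2 cells the difference was not called (log2 fold change 1.62 ± 0.57, adjusted p = 0.105). The C3 call rested on the full set of libraries: its adjusted p was 0.0955 without C3 replicate 1, 0.176 without C3 replicate 2 and 0.0627 without OSKM replicate 2. Regions 2 and 3, inside the gene, were called in neither comparison.

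The Krt8 promoter is the only one, of the 5 members with an entry in the RefSeq promoter table (Ovol2, Krt8, Krt18, Cldn6 and Epcam), that lay under a called region, region 5. It is printed with that of Krt18, its filament partner, which was chosen after its values were seen. Both are the 250 bases before the gene's start in RefSeq's GRCm38.p6 annotation, 5′ to 3′ on the gene's own strand. Capitals mark the motif CACCTG, an E-box bound by SNAI and ZEB repressors, searched on both strands.
Krt8, chr15:102004343-102004592, minus strand: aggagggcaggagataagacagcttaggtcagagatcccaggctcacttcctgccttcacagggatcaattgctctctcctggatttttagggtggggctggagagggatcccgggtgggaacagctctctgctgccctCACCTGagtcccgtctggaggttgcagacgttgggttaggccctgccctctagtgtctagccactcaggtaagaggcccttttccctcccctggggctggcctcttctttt
Krt18, chr15:102027966-102028215, plus strand: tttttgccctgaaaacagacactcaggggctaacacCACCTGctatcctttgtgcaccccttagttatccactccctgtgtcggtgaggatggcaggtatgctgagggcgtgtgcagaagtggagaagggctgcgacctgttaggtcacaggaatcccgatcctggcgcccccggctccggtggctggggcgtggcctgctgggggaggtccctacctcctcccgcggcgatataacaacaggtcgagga
Each of the 2 windows held CACCTG 1 time, a motif found in 17.2% of 32851 promoter windows of the same length. The GC box GGGCGG, present in 32.7% of windows, and ACCGGT, the core of the grainyhead motif, present in 1.86%, were in neither. CACCTG was not particular to the keratin genes. Among the members whose promoter region was not called, Cldn6 held it 1 time, Epcam 2 times and Ovol2 0 times. GGGCGG was in the windows of Cldn6 (2 times) and Epcam (1 time), and ACCGGT was in that of Epcam (2 times). These letters are a description of the windows, and binding at them was not measured.

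Krt18 differed upstream of its promoter. Its strongest region, region 1 (chr15:102024005-102026250), held 169 and 103 normalized reads in C2 cells, against 35.6 and 52.0 in OSKM cells (1.59 ± 0.36, adjusted p = 0.0321). It held 251 and 169 normalized reads in C3 cells, against 38.6 and 56.6 in OSKM cells (2.12 ± 0.33, adjusted p = 0.00616). The groups did not overlap, and the C2 call was lost without C2 replicate 1 (adjusted p = 0.0793) or OSKM replicate 1 (adjusted p = 0.0573). Region 2 (chr15:102026356-102027384), between region 1 and the promoter, held 66.4 and 34.6 normalized reads in C2 cells, against 3.05 and 0.913 in OSKM cells (4.14 ± 0.82, adjusted p = 0.0239), and 67.8 and 49.1 normalized reads in C3 cells, against 3.31 and 0.993 in OSKM cells (4.32 ± 0.74, adjusted p = 0.00806). OSKM libraries were at 3 reads and 1 read, and the ratio of summed reads with its exact 95% interval, which covers counting error only, was 28 (10.6 to 105) for C2 cells and 28.5 (10.9 to 106) for C3 cells. Both calls held without any 1 library, although the fitted values depend on the pseudocount at so few OSKM reads. Over the promoter itself, region 3 held 174 and 91.1 normalized reads in C2 cells, against 52.8 and 81.2 in OSKM cells, which was not called (0.93 ± 0.38, adjusted p = 0.143), and neither was the C3 difference (0.89 ± 0.35, adjusted p = 0.110).

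Krt19 had its most marked difference in region 4 (chr11:100147837-100149295), beyond the gene's high-coordinate end. The region held 58.0 and 46.2 normalized reads in C2 cells, against 1.02 and 1.83 in OSKM cells (4.47 ± 0.76, adjusted p = 0.0175), and 41.8 and 33.8 normalized reads in C3 cells, against 1.1 and 1.99 in OSKM cells (3.95 ± 0.72, adjusted p = 0.00966). OSKM libraries were at 1 read and 2 reads there, with ratios of summed reads of 37.0 (12.3 to 182) for C2 cells and 24.5 (8.08 to 121) for C3 cells. Both calls held without any 1 library, although here too the fitted values depend on the pseudocount. Its strongest region, region 3 (chr11:100145141-100147173), held 127 and 157 normalized reads in C2 cells, against 42.7 and 73.0 in OSKM cells (1.32 ± 0.33, adjusted p = 0.0426), and 135 and 113 normalized reads in C3 cells, against 46.4 and 79.4 in OSKM cells (1.01 ± 0.34, adjusted p = 0.0684). The groups did not overlap in either comparison, but the C3 difference missed the threshold, and the C2 call was lost without C2 replicate 1 (adjusted p = 0.0573), C2 replicate 2 (adjusted p = 0.125) or OSKM replicate 1 (adjusted p = 0.215). The primitive endoderm markers, which were higher in C2 and C3 cells than in OSKM cells as given above, moved with these keratin values and with Grhl2, and their part in the result was not tested. After quantile normalization the C2 calls were lost at Krt18 region 1 (adjusted p = 0.0573), Krt18 region 2 (0.0814), Krt19 region 3 (0.0805) and Krt19 region 4 (0.05005), and so was the C3 call at Krt8 region 5 (0.0880).

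**Figure D3:**
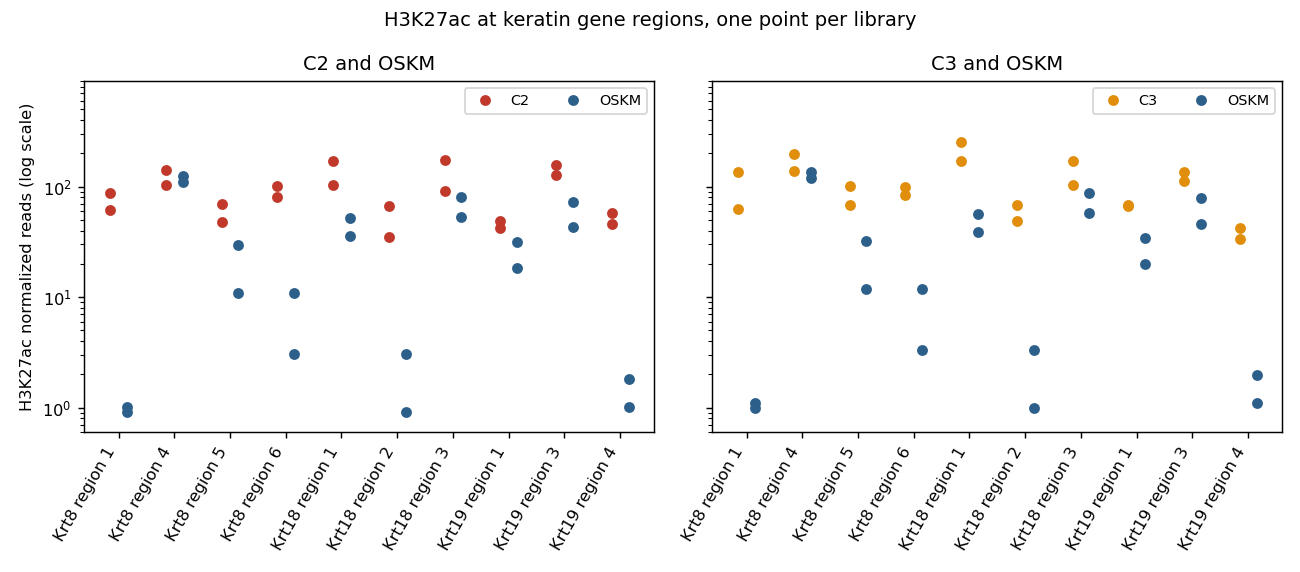
H3K27ac normalized reads (logarithmic vertical axis) at regions of Krt8, Krt18 and Krt19, 1 point per library, for C2 beside OSKM cells (left panel) and C3 beside OSKM cells (right panel), each panel on the scale of its own deposited table. At Krt8 region 4 the C2 and OSKM points overlap, whereas at Krt8 region 1, Krt18 region 2 and Krt19 region 4 the OSKM points lie at 1 to 3 reads and the C2 and C3 points far above them.

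The junction genes were lower in C2 and C3 cells or not called. Cdh1, which encodes E-cadherin, lies at chr8:106603350-106670247 and had 13 H3K27ac regions. Normalized reads over its 13 regions summed to 3651 and 2475 in C2 cells, against 7021 and 6895 in OSKM cells, a ratio of 0.440, and to 4985 and 4040.3 in C3 cells, against 7628 and 7500.1 in OSKM cells, a ratio of 0.597. Most of that lay in region 2 (chr8:106606644-106624951), the widest of all member regions at 18308 bp. This region held 2397 and 1487 normalized reads in C2 cells, against 4062 and 4005 in OSKM cells (-1.09 ± 0.29, adjusted p = 0.0481), and 3678 and 2555 normalized reads in C3 cells, against 4414 and 4357 in OSKM cells, a difference that was not called (-0.52 ± 0.34, adjusted p = 0.321). The values of C2 and C3 libraries were below those of both OSKM libraries, and the C2 call was lost without OSKM replicate 1 (adjusted p = 0.495) or replicate 2 (adjusted p = 0.452).

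The lowest adjusted p at Cdh1 belonged to region 1 (chr8:106602426-106606486), at the gene's low-coordinate end. The region held 397 and 369.5 normalized reads in C2 cells, against 1122 and 1139 in OSKM cells (-1.56 ± 0.19, adjusted p = 0.0106), and 422 and 419 normalized reads in C3 cells, against 1219 and 1239 in OSKM cells (-1.54 ± 0.21, adjusted p = 0.00474). Both calls held without any 1 library. At region 12 (chr8:106644910-106646255) the values were 60.5 and 39.8 normalized reads in C2 cells, against 150.3 and 141 in OSKM cells (-1.55 ± 0.31, adjusted p = 0.0236), and 62.7 and 64.4 normalized reads in C3 cells, against 163 and 154 in OSKM cells (-1.31 ± 0.26, adjusted p = 0.0123). The C2 call there was lost without OSKM replicate 1 (adjusted p = 0.0501). Region 10 (chr8:106638337-106643529) held 319 and 271 normalized reads in C2 cells, against 677 and 563 in OSKM cells (-1.07 ± 0.21, adjusted p = 0.0231), a call lost without OSKM replicate 1 (adjusted p = 0.189) or replicate 2 (adjusted p = 0.0567). Region 6 (chr8:106628793-106630191) held 36.8 and 49.1 normalized reads in C3 cells, against 116 and 157 in OSKM cells (-1.64 ± 0.33, adjusted p = 0.0123), a call lost in 1 fit over all 6 libraries (adjusted p = 0.113). Despite this direction, Cdh1 kept a clear signal in both lines: in rpm per kb of region it held 8.39 and 6.86 in C2 libraries, 8.44 and 8.53 in C3 libraries and 13.9 and 13.5 in OSKM libraries.

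Marveld3, a MARVEL-domain protein of tight junctions, lies at chr8:109947909-109962205 and had 4 regions of low signal. Region 1 (chr8:109956913-109957817), its strongest, held 31.1 and 30.8 normalized reads in C2 cells, against 106 and 111 in OSKM cells (-1.78 ± 0.32, adjusted p = 0.0193), a call lost without OSKM replicate 2 (adjusted p = 0.0539). It held 10.0 and 1.09 normalized reads in C3 cells, against 115 and 121 in OSKM cells (-4.63 ± 0.82, adjusted p = 0.00862). C3 replicate 2 was at 1 read, and every OSKM library was far above the C2 and C3 libraries of its table. Regions 2 and 4 had log2 fold changes of -1.67 and -1.67 in C2 cells, with adjusted p of 0.0388 and 0.0287, and these became 0.192 and 0.0751 without OSKM replicate 1, and 0.175 and 0.142 without OSKM replicate 2. In C3 cells they had log2 fold changes of -4.56 and -2.85, with adjusted p of 0.00654 and 0.00728, which held without any 1 library. Region 3 differed between the C2 libraries themselves, with 0.841 and 52.6 normalized reads in C2 cells, against 11.2 and 11 in OSKM cells, and was not called there, while both C3 libraries were at 1 read, at least 4.16-fold lower than OSKM cells (adjusted p = 0.0300). After quantile normalization the C2 calls were lost at Cdh1 regions 2, 10 and 12 (adjusted p = 0.221, 0.0734 and 0.0577) and Marveld3 regions 2 and 4 (0.0660 and 0.0585). In 1 fit over all 6 libraries the C2 calls were lost at Marveld3 regions 1, 2 and 4 (adjusted p = 0.0591, 0.0997 and 0.0742).

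Chromosome 8 as a whole was lower in C2 and C3 cells. The median log2 fold change of its 4886 tested H3K27ac regions was -1.34 for C2 over OSKM, and that of its 5017 tested regions was -1.09 for C3 over OSKM, against medians of 0.04 and 0.08 on the other autosomes. Called lower were 35.5% of the regions of chromosome 8 in C2 cells and 38.2% in C3 cells, against 3.78% and 7.04% on the other autosomes. The regions of Cdh1 and Marveld3 therefore have to be read against their chromosome, and 13 of their 17 regions were called lower in each comparison. Chromosome 8 was also fitted alone, with each library centred on its own median there. The share of all chromosome 8 regions called in that fit is not given here, so its counts have no share to stand against. None of these 17 regions was called in it in C2 cells and 3 were called in C3 cells.

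All 3 belonged to Marveld3. In that fit, Marveld3 regions 1, 2 and 4 were lower in C3 than in OSKM cells by log2 fold changes of -3.55 ± 0.83, adjusted p = 0.0281 for region 1, -3.48 ± 0.68, adjusted p = 0.0178 for region 2 and -1.77 ± 0.46, adjusted p = 0.0384 for region 4. Cdh1 region 1 had -0.32 ± 0.17, adjusted p = 0.290 in C2 cells and -0.46 ± 0.20, adjusted p = 0.146 in C3 cells. Cdh1 region 2 changed sign relative to its chromosome, with 0.15 ± 0.13, adjusted p = 0.552 in C2 cells and 0.56 ± 0.29, adjusted p = 0.209 in C3 cells. Of all chromosome 8 regions, 3.91%, 4.19% and 14.7% had a lower log2 fold change of C3 over OSKM, before centring, than Marveld3 regions 1, 2 and 4. Relative to chromosome 8, then, Cdh1 was not shown to differ in either line. Marveld3 regions 1, 2 and 4 were lower in C3 cells by region values, while the peaks of region 4, given below, went another way.

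**Figure D4:**
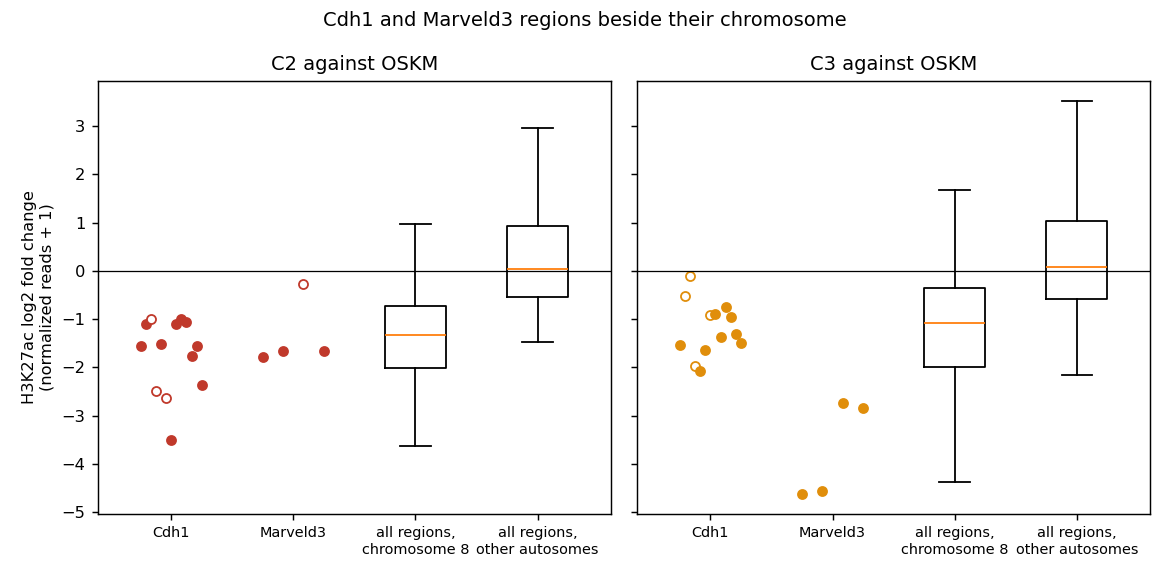
H3K27ac log2 fold changes on normalized reads + 1 for the regions of Cdh1 and Marveld3 (points, filled where the adjusted p was under 0.05) beside boxes for all tested regions of chromosome 8 and of the other autosomes (line: median; box: quartiles; whiskers: 5th and 95th percentiles), for C2 against OSKM cells (left panel) and C3 against OSKM cells (right panel). The median line of chromosome 8 is at -1.34 and -1.09, the Cdh1 points lie on either side of it, and the Marveld3 points of the right panel lie below the box.

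Cldn6, a claudin of embryonic epithelia and pluripotent cells, and Epcam, an adhesion molecule of epithelial and pluripotent cells, were not called at their strongest regions. Cldn6 region 1 (chr17:23672761-23678204), which lies outside Cldn6 and over its neighbours Hcfc1r1, Thoc6 and Tnfrsf12a, held 565 and 457 normalized reads in C2 cells, against 425 and 538 in OSKM cells (0.09 ± 0.22, adjusted p = 0.812), and 548 and 605 normalized reads in C3 cells, against 461 and 585 in OSKM cells (0.15 ± 0.23, adjusted p = 0.668). Region 2, over the Cldn6 promoter, had log2 fold changes of 0.16 ± 0.21, adjusted p = 0.639 in C2 cells and 0.20 ± 0.22, adjusted p = 0.536 in C3 cells. Epcam region 1 (chr17:87634167-87636669), over the Epcam promoter, held 297 and 286 normalized reads in C2 cells, against 255 and 277 in OSKM cells (0.13 ± 0.20, adjusted p = 0.678), and 474 and 337 normalized reads in C3 cells, against 277 and 301 in OSKM cells (0.47 ± 0.24, adjusted p = 0.2024). Regions 2 to 4 of Epcam had log2 fold changes from -0.19 to 0.77 in C2 cells and from -0.13 to 0.28 in C3 cells, none called. Regions 5 and 6 of Epcam held at most 6 reads in any library.

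The exception was Cldn6 region 3 (chr17:23683048-23684651), which overlaps the neighbouring claudin gene Cldn9. It held 0.837 and 16.4 normalized reads in C3 cells, against 65.1 and 53.6 in OSKM cells (-3.41 ± 1.02, adjusted p = 0.0486). In the other table it was not called, with 63.0 and 82.1 normalized reads in C2 cells, against 59.9 and 49.3 in OSKM cells (0.40 ± 0.33, adjusted p = 0.458). C3 replicate 1 was at 1 read, and without it the call was lost (adjusted p = 0.0576), as it was after quantile normalization (adjusted p = 0.0658).

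C2 and C3 cells, compared directly, gave no call at the 10 genes: 0 of 74 tested H3K27ac regions passed in limma, where 0.0581% of all 101532 regions did, 0.0276% higher and 0.0305% lower in C2 cells. At an unadjusted p under 0.05 in limma there were 8 regions, 4 higher and 4 lower in C2 cells. Some member regions were called by limma without C2 replicate 1 or without C3 replicate 2. The share of all regions that passed in these ways is not given here. edgeR's quasi-likelihood test on the recovered reads also called 0 regions, and DESeq2 called 1, Cldn6 region 3. That region had the lowest adjusted p in limma, with 67.1 and 86.6 normalized reads in C2 cells, against 0.794 and 15.6 in C3 cells (log2 fold change 3.82 ± 0.97, adjusted p = 0.148). The groups did not overlap, and C3 replicate 1 was again at 1 read. For C2 against C3 cells, 4 member regions have an FDR under 0.05 in the authors' deposited table: Cldn6 region 3 (0.0232), Marveld3 region 2 (0.0109), Marveld3 region 3 (0.0381) and Cdh1 region 7 (0.0416).

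Among the other regions, Marveld3 regions 1 and 2 and Cdh1 region 7 had unadjusted p under 0.05 and large estimates without passing the limma threshold. The value at Marveld3 region 1 was 33.1 and 32.5 normalized reads in C2 cells, against 9.53 and 1.04 in C3 cells (2.87 ± 1.03, adjusted p = 0.280), and region 2 held 21.5 and 24.4 normalized reads in C2 cells, against 3.97 and 1.04 in C3 cells (2.91 ± 1.05, adjusted p = 0.283). Cdh1 region 7 held 4.47 and 1.35 normalized reads in C2 cells, against 22.2 and 18.7 in C3 cells (-2.58 ± 1.05, adjusted p = 0.336). At Grhl2, 19 of 25 tested regions had a negative log2 fold change of C2 over C3, with a median of -0.34 where the median of all regions was -0.06, and normalized reads over its regions summed to 3127 and 2463 in C2 cells, against 4491 and 3215 in C3 cells. The totals of the C2 libraries were below those of both C3 libraries. The keratin genes had no region with a log2 fold change of C2 over C3 outside the range of -0.87 to 1.56.

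The deposited H3K9me3 tables had a region at 2 of the 10 genes, 1 each, and neither lay over a promoter in the RefSeq table. At Cdh1 it was lower in C2 and C3 cells than in OSKM cells. Its region (chr8:106656579-106657226), 53.6 kb into the gene, held 9.17 and 18.1 normalized reads in C2 cells, against 74.1 and 54.3 in OSKM cells (-2.21 ± 0.49, adjusted p = 0.0285), where 3.29% of all 51633 H3K9me3 regions tested were called, 0.389% higher and 2.9% lower. It held 6.89 and 1.52 normalized reads in C3 cells, against 82.7 and 59.5 in OSKM cells (-4.00 ± 0.68, adjusted p = 0.00324), where 9.06% were called, 1.72% higher and 7.35% lower. The groups did not overlap. Both calls were lost without OSKM replicate 1 (adjusted p = 0.363 for C2 and 0.116 for C3 cells) or replicate 2 (adjusted p = 0.143 and 0.0649), and the C2 call also after quantile normalization (adjusted p = 0.0710) and in 1 fit over all 6 libraries (adjusted p = 0.111). Chromosome 8 had median H3K9me3 log2 fold changes of -0.99 for C2 over OSKM and -0.84 for C3 over OSKM, and in the fit of chromosome 8 alone the Cdh1 region had -1.27 ± 0.53, adjusted p = 0.358 and -3.12 ± 0.69, adjusted p = 0.0523, neither called. Both the active and the repressive mark were thus lower at Cdh1 in C2 and C3 cells, and both were lower over its chromosome.

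At Krt8, the H3K9me3 region (chr15:101993539-101996199) lay beyond the low-coordinate end and overlapped Krt78. It held 191 and 266 normalized reads in C2 cells, against 145 and 117 in OSKM cells (0.79 ± 0.23, adjusted p = 0.0847), which was not called with all libraries but was without C2 replicate 1. It held 322 and 234 normalized reads in C3 cells, against 162 and 129 in OSKM cells (0.92 ± 0.19, adjusted p = 0.0111), which was called higher, although not without OSKM replicate 2 (adjusted p = 0.115). Its coordinates overlap those of H3K27ac region 1 of Krt8, so in C3 cells both marks were higher over the same stretch, and bulk values do not say whether 1 cell carried both. Neither H3K9me3 region was called between C2 and C3 cells in limma, edgeR or DESeq2, and neither had an unadjusted p under 0.05, where 0.134% of all 51632 regions were called, 0.0465% higher and 0.0872% lower.

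Peaks called by the authors in each library give a second readout of the same reads. In all, C2 libraries held 116945 and 76915 H3K27ac peaks, C3 libraries 109671 and 109985, and OSKM libraries 86571 and 87998. Numbers at single genes have to be read against these totals, which were lower in OSKM than in C3 libraries and differed between the C2 libraries. At the 10 genes, C2 libraries had 99 and 74 H3K27ac peaks, C3 libraries 77 and 89, and OSKM libraries 67 and 61. At Grhl2 the numbers were 36 and 23 in C2, 28 and 28 in C3, and 12 and 14 in OSKM libraries. Krt8 had 5 and 3 peaks in C2, 5 and 5 in C3, and 2 and 2 in OSKM libraries. Marveld3 had no peak in either C2 library, 2 and 1 in C3 libraries, and 4 and 3 in OSKM libraries, so that C2 and C3 cells were in another order than in the region values. The highest Marveld3 peaks of the C3 libraries lay 14.1 and 13.9 kb into the gene, at region 4, with fold enrichments of 5.93 and 6.07. Those of the OSKM libraries lay at 9.7 kb, with 5.56 and 4.07, although region 4 was called lower in C3 cells. The reason for this was not tested. Peak numbers also follow how finely a stretch was split, and Cdh1, with 28 and 14 peaks in C2, 15 and 23 in C3 and 24 and 21 in OSKM libraries, did not separate the lines. H3K9me3 peaks in all numbered 69446 and 64028 in C2, 96055 and 56350 in C3, and 90392 and 93735 in OSKM libraries. At the 10 genes, H3K9me3 peaks numbered 3 and 1 in C2, 3 and 1 in C3, and 7 and 2 in OSKM libraries. All 6 libraries had at least 1 at Krt8. At Cdh1 both OSKM libraries had 1, 53.4 kb into the gene, and C3 replicate 1 had 2, the highest at 20.9 kb. OSKM replicate 1 alone had peaks at Grhl2 (2) and Ovol2 (1).

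No peak of the HA-tagged artificial factors overlapped the window of any of the 10 genes. The HA libraries of early C2 cells held 12376 and 44939 peaks in all, and those of Empty cells 10666 and 22632, and 0 of these lay at the members in each of the 4 libraries. The redundant rate of reads was 0.92 to 0.94 in these HA libraries, and 1629753 to 3896935 reads per library were kept for peak calling. With so few distinct reads, the lack of a peak does not show a lack of binding. The HA libraries came from early cells, at day 20 for C2, and not from the iPS cells in which the histone marks were mapped.

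The other genes of the epithelial programme did not share one direction. Of 50 further epithelial genes, 48 had an H3K27ac region and 47 were tested at their strongest one for C2 against OSKM cells, with 2 higher and 5 lower in C2 cells, where 5.21% of all regions were called higher and 5.38% lower. The median log2 fold change of the list was -0.30, where that of all regions was -0.01. For C3 against OSKM cells 46 were tested, with 4 higher and 3 lower, where 13.5% of all regions were called higher and 8.52% lower. The median was -0.21, where that of all regions was 0.03. Quantile normalization gave 3 calls in C2 cells. Without C2 replicate 1 the number of calls in C2 cells rose, and without either OSKM library it fell. In C3 cells the number rose without either C3 library and fell without either OSKM library. The share of all regions called in those fits is not given here. The keratin gene Krt23 had the highest fold change in both, with 108 and 43.6 normalized reads in C2 cells, against 1.02 and 0.913 in OSKM cells (5.15 ± 0.81, adjusted p = 0.0149), and 203 and 82.9 normalized reads in C3 cells, against 1.1 and 0.993 in OSKM cells (6.00 ± 0.72, adjusted p = 0.00378). All C2 and C3 libraries were far above both OSKM libraries, which were at 1 read, so that the fitted fold change depends on the pseudocount. Ehf, an epithelial ETS factor, held 182 and 271 normalized reads in C3 cells, against 50.8 and 66.5 in OSKM cells (1.92 ± 0.30, adjusted p = 0.00644). Dsg2, a desmosomal cadherin, held 469.9 and 387 normalized reads in C2 cells, against 809 and 837 in OSKM cells (-0.95 ± 0.20, adjusted p = 0.0282), and Grhl3, a relative of Grhl2, held 1273 and 874 normalized reads in C2 cells, against 2320.2 and 2087 in OSKM cells (-1.06 ± 0.25, adjusted p = 0.0361). Dsg2 was called lower in C3 cells as well (-0.84 ± 0.21, adjusted p = 0.0274). Llgl2 was also lower in C2 cells, with a log2 fold change of -1.05, and so was Esrp2 (-0.93), which lies on chromosome 8.

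Of the 10 mesenchymal counterparts, 9 had an H3K27ac region. Snai1, a repressor of Cdh1, held 500.2 and 327 normalized reads in C2 cells, against 157 and 173 in OSKM cells (1.29 ± 0.25, adjusted p = 0.0227), and 653 and 489 normalized reads in C3 cells, against 171 and 188 in OSKM cells (1.65 ± 0.23, adjusted p = 0.00507). Cdh2, which encodes N-cadherin, held 56.3 and 34.6 normalized reads in C2 cells, against 4.06 and 5.48 in OSKM cells (2.98 ± 0.69, adjusted p = 0.0345), and 93.7 and 62.2 normalized reads in C3 cells, against 4.42 and 5.96 in OSKM cells (3.66 ± 0.60, adjusted p = 0.00707). Vim, which encodes the mesenchymal filament vimentin, was called higher in C3 cells (0.98 ± 0.24, adjusted p = 0.0264). None of the 9 was called lower, 2 were called higher in C2 cells, where 5.21% of all regions were, and 3 in C3 cells, where 13.5% were. The list medians were -0.28 for C2 and 0.00 for C3 cells. H3K9me3 was tested at 9 genes of the epithelial list, with 1 lower in C2 cells (Dsg2) and 4 lower in C3 cells (Dsg2 among them). It was tested at 3 mesenchymal counterparts, with 2 lower in C3 cells (Zeb1 and Snai1). Of all H3K9me3 regions, 2.9% were called lower in C2 and 7.35% in C3 cells. The median log2 fold changes in C2 and C3 cells were -0.61 and -0.85 for the epithelial list, -0.51 and -1.61 for the mesenchymal list and -0.15 and -0.06 for all regions. The epithelial counts and the mesenchymal count in C3 cells fell when either OSKM library was left out. The epithelial count in C2 cells rose without either C2 library. The share of all H3K9me3 regions called in those fits is not given here.

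Over the 6 H3K27ac libraries, the epithelial gene of the list whose strongest region followed that of a member most closely was Krt23 for Grhl2 (Pearson's r = 0.987), Krt18 (0.986) and Krt8 (0.958), out of 48 genes compared. For Cdh1 it was Grhl3 (0.979), for Ovol2 Ap1m2 (0.983), for Epcam Elf3 (0.982), for Cldn6 Ovol1 (0.986), for Esrp1 Lamb3 (0.929), for Krt19 Ctnnb1 (0.908) and for Marveld3 Ctnnd1 (0.865). These 6 points come from 3 lines with 2 libraries each and share the differences between lines, so the values only describe likeness of level on log2(rpm + 1).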

How the data were processed

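Per the submitters' processing notes, the tools were DiffBind 1.16.2, SAMtools 1.3, Bowtie2 2.2.5 and CASAVA 1.8.2, and the build was mm10. Per the file headers, the authors called peaks per library with MACS 2.1.0.20150731 (histone marks) or 2.1.1.20160309 (HA) at a q-value of 0.01; the deposited peak files give a pileup signal, -log10 p-values and q-values and a fold ratio over background. The authors' 6 deposited tables give a signal per library (normalized reads), log2 means and fold changes, a p-value and an FDR. Dividing a column by its lowest value gave whole reads for 100% of values (tolerance 1e-06); whether control reads were subtracted is not given in the sources used here.

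Each table was fitted alone with limma 3.58.1 (R 4.3.3, trend) on log2(normalized reads + 1), after leaving out the 25% of regions with the lowest mean, with Benjamini-Hochberg adjustment over all regions fitted. edgeR 4.0.16 and DESeq2 1.42.0 on recovered reads were alternatives. The fits were tested on simulated data. Gene extents and promoters came from RefSeq GRCm38.p6, which is mm10. Members, lists and tests were chosen with earlier results of these data known. All 10 members are named, at their strongest region and at up to 3 called regions per comparison; of each list, up to 6 called genes. Input libraries were not analysed on their own. Floors and bounds (3 reads) cover counting error only, and hold only for the reads as deposited. Python 3.11.15, NumPy 2.4.6, pandas 2.3.3, SciPy 1.17.1, matplotlib 3.10.9 and the R package data.table (version 1.17.8) were used.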

Additional observations from a re-analysis of the deposited data

How the results depend on the processing

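Counts of called member regions are given here under other settings, with the value as reported in brackets. The share of all regions called under each of these settings is not given in this section. A change at the members can therefore not be told apart from a change over all regions. For H3K27ac in C2 against OSKM cells (32), quantile normalization gave 13, fitting without chromosomes 8, X and Y gave 19, and leaving out 1 library gave 18 to 30. For C3 against OSKM cells (38), fitting without chromosomes 8, X and Y gave 25. For C2 against C3 cells (0), no filter gave 1, DESeq2 1, 1 fit over 6 libraries 1, and leaving out 1 library 0 to 2. For H3K9me3 in C2 against OSKM cells (1), quantile normalization, no filter and fitting without chromosomes 8, X and Y gave 0, edgeR gave 2, and leaving out 1 library 0 to 2. For H3K9me3 in C3 against OSKM cells (2), fitting without chromosomes 8, X and Y gave 1, windows with no flank gave 1, and leaving out 1 library 0 to 2. Centred on chromosome 8 alone, the counts of Cdh1 and Marveld3 regions were 0 (C2) and 3 (C3) for H3K27ac, where 13 each were reported, and 0 and 0 for H3K9me3, where 1 each was reported. Other H3K27ac and H3K9me3 counts of members were within 1.5 times the reported one, except under the replicate block, given below.

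For the list of epithelial genes, H3K27ac calls in C2 against OSKM cells (7) were 3 after quantile normalization and 1 to 18 with 1 library left out, those in C3 against OSKM cells (7) were 2 to 14, and those in C2 against C3 cells (0) were 1 with no filter and 0 to 3. H3K9me3 calls of the list in C2 against OSKM cells (1) were 0 after quantile normalization and 0 to 6, those in C3 against OSKM cells (4) were 2 to 5, and those in C2 against C3 cells (0) were 1 with no filter, 1 after quantile normalization and 0 to 1. For the mesenchymal counterparts, H3K27ac calls in C2 against OSKM cells (2) were 1 after quantile normalization, and H3K9me3 calls were 0 to 1 in C2 against OSKM cells (0), 0 to 3 in C3 against OSKM cells (2) and 0 to 1 in C2 against C3 cells (0). Leaving out 1 library at a time for these lists was chosen after seeing the data. With 1 library left in a group, its spread is assumed to be that of the other group.

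No label says that a replicate number marks a shared culture, batch or day, and 2 pairs per comparison are too few to read a pairing from the values, so the numbers were not used as pairs. Deviations of same-numbered H3K27ac libraries correlated at -0.05 (C2 and OSKM), -0.04 (C3 and OSKM) and 0.35 (C2 and C3), and those of H3K9me3 libraries at 0.0024, 0.035 and 0.107, with 2 pairs each. With the replicate number as a block, 10 H3K27ac regions were called between C2 and C3 cells and 2 H3K9me3 regions between C2 and OSKM cells. Other member counts stayed within 1.5 times the reported ones. The share of all regions called with the block is not given here.

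Estimates of single regions that changed sign were small as reported or belonged to chromosome 8. Centred on chromosome 8 alone, the log2 fold changes were 0.145 for Cdh1 region 2 and 0.171 for region 10 in C2 cells and 0.563 for region 2 in C3 cells. With median-centred libraries they were -0.067 for Krt8 region 4 and -0.025 for Cldn6 region 1 in C2 cells, and -0.049 for Esrp1 region 2 and -0.022 for Cldn6 region 1 in C3 cells. With 1 library left out, Krt8 region 4 ranged from -0.169 (without C2 replicate 1) to 0.261 in C2 cells and was at -0.048 without OSKM replicate 2. Cldn6 region 1 ranged from -0.082 (without OSKM replicate 1) to 0.258 in C2 cells, with -0.065 without C2 replicate 1, and from -0.022 (without OSKM replicate 1) to 0.319 in C3 cells. For C2 against C3 cells it was at 0.316 after quantile normalization, 0.039 in edgeR, 0.044 in DESeq2 and 0.230 in 1 fit over 6 libraries, and ranged from -0.185 to 0.134 with 1 library left out. The Krt8 H3K9me3 region, for C2 against C3 cells, ranged from -0.376 to 0.118. The cause of these differences was not tested.

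Quantile normalization moved the median H3K27ac log2 fold change of all regions by -0.15 (C2) and -0.16 (C3), and median-centring by -0.11 and -0.17. Of 39 called values of named regions, quantile normalization kept 27 past the threshold, 1 fit over 6 libraries 34, DESeq2 39 and edgeR 38. With 2 libraries per group, regions of few reads are the least certain, and counts of 1 to 3 reads per library limit Marveld3, the flanks of Krt8, Krt18 and Krt19, and much of Grhl2.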
